A study of Mus musculus with 8 samples.

Results

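The forkhead (Fox), SOX and Krüppel-like (Klf) genes are 3 families of transcription factors, and they were followed in mouse corneas by RNA sequencing. Their members were taken by name from the deposited gene table, as every row whose symbol was Fox plus a letter and a digit, Sox plus digits, or Klf plus digits, with Klf4 and Klf5 left out. This gave 46 of 13437 gene rows, namely 21 Fox, 13 Sox and 12 Klf genes. The dry eye group held corneas of female C57BL/6 mice, aged 6 to 8 weeks, whose eyes had each received 5 µl of 0.2% BAC 2 times daily for 7 days. The control group held corneas of mice of the same strain, sex and age range that had received PBS in both eyes. Corneas were collected at 7 days, with 4 libraries per group. BAC is not spelled out in the labels, and in dry eye models the abbreviation usually stands for benzalkonium chloride, a surfactant preservative of eye drops. The number of animals or eyes behind a library is not given in the sources used here, so the p-values measure how far these libraries spread, which may be technical.

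Fox proteins bind DNA through a winged-helix domain, SOX proteins through an HMG box that bends the helix, and Klf proteins through zinc fingers that read GC-rich and CACCC sequences. Within each family the members with the most alike domains form subgroups that often act in place of each other. In the eye, Foxc1 and Foxc2 are known from the anterior segment, SOX factors from lens, neural crest and epithelial progenitors, and Klf factors from the stratified corneal epithelium.

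The values were FPKM as the authors deposited them, that is, fragments scaled to transcript length and to library size. Their sum ran from 268629 to 277808 over the BAC libraries and from 273777 to 283538 over the PBS libraries, and read depth is unknown. Libraries of the same group correlated across genes with Pearson's r of 0.977 to 0.986, and libraries of different groups with 0.784 to 0.836. Most of the transcriptome differed, since 67.6% of 12967 tested genes passed the threshold of an adjusted p of 0.05, and of all tested genes 45.1% were higher and 22.6% lower with BAC. Krt12, the keratin of corneal epithelium, was 979-fold lower with BAC, and 14 of 15 corneal epithelial markers fell. Krt7, Krt8 and Krt19, keratins of simple and conjunctival epithelium, were among 6 of 7 tested conjunctival markers that rose. The other, Fcgbp, was 8.04-fold lower. Of the 12 conjunctival markers listed, Gp2, Muc5ac, Spdef, Tff1 and Tff3 had no gene row. In bulk tissue, fewer cells of a type and less RNA per cell cannot be told apart, and this holds for every value that follows.

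Of the 46 genes, 44 had a mean of at least 0.5 FPKM over the 8 libraries and were tested. With BAC, 24 of them rose, 11 fell and 9 did not pass, beside the 45.1% and 22.6% of all tested genes. In 34 of the 44 the groups did not overlap, beside 63.5% of all tested genes. Log2 changes are on the scale of log2(FPKM + 1), where low genes appear to change less than their FPKM ratio. The median change of the 44 was 0.38, beside 0.19 for all tested genes. A further condition bears on these counts. The authors' table holds only genes with a mean of at least 0.501 FPKM in the higher group, so a gene nearly absent from PBS corneas could enter only by being higher with BAC. This was so for 10 of the tested genes (Foxc2, Foxf1, Foxn1, Foxo6, Foxs1, Klf12, Sox2, Sox10, Sox11 and Sox17), and Sox6 entered only through PBS. Among the 33 with a mean of at least 0.5 FPKM in both groups, 14 rose, 10 fell and 9 did not pass, with a median change of 0.16. Over all 11594 such genes 64.7% passed, 41.2% higher and 23.5% lower, with a median change of 0.14. The condition on entry also bears on the marker and target lists given below.

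By family, of 20 tested Fox genes 10 rose, 5 fell and 5 did not pass. Of 13 Sox genes 8 rose, 4 fell and 1 did not pass, and in all 13 the groups did not overlap. Of 11 tested Klf genes 6 rose, 2 fell and 3 did not pass. Among members with a mean of at least 0.5 FPKM in both groups, 5 of 15 Fox genes rose and 5 fell, with a median change of -0.07. Of 8 such Sox genes 4 rose and 3 fell, and of 10 such Klf genes 5 rose and 2 fell. Changes of at least 1 on the log2 scale were found in 13 members that rose and 1 that fell, where 16.5% of all tested genes rose and 6.34% fell by as much. Of these 13 genes, 6 were testable only through the BAC libraries. Among the 33 members with a mean of at least 0.5 FPKM in both groups, 7 rose and 1 fell by as much, beside 11.8% and 6.17% of all such genes. The median of all genes, 0.19 as deposited and 0.205 after rescaling to a common total, was 0.01 under median-of-ratios scaling and -0.081 under quantile normalization, and the split of all genes was then 4467 higher and 4229 lower, or 3949 higher and 4967 lower. The Fox split became 6 higher and 7 lower under median-of-ratios scaling and 5 higher and 6 lower under quantile normalization. The Sox split became 8 higher and 5 lower, and 6 higher and 5 lower. The Klf split was 6 higher and 2 lower under both.

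**Figure D1:**
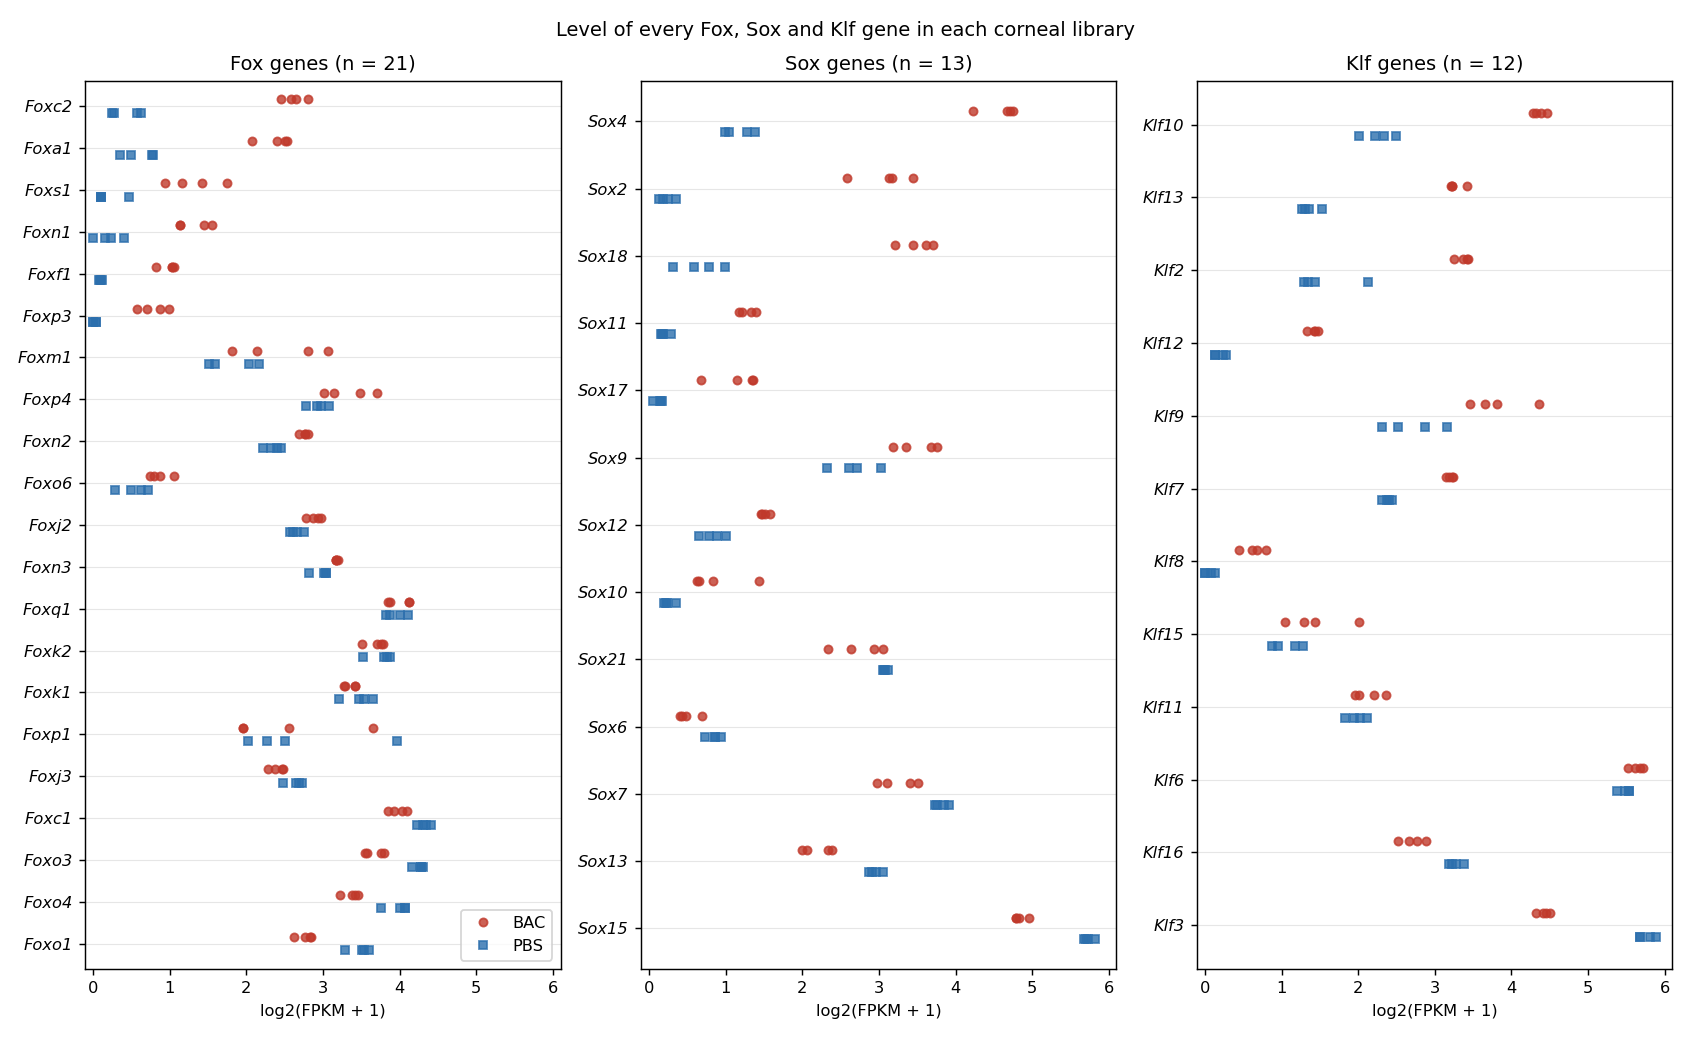
Level of all 46 genes on the log2(FPKM + 1) scale (x axis), with a row for each gene, 4 BAC libraries as red circles and 4 PBS libraries as blue squares, and genes ordered within a family by the difference of the groups. Sox4, Sox2, Sox18, Foxc2 and Klf10 stand far apart on the BAC side and Klf3 and Sox15 on the PBS side, while Foxq1, Foxk1, Foxk2 and Foxp1 overlap.

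**Figure D2:**
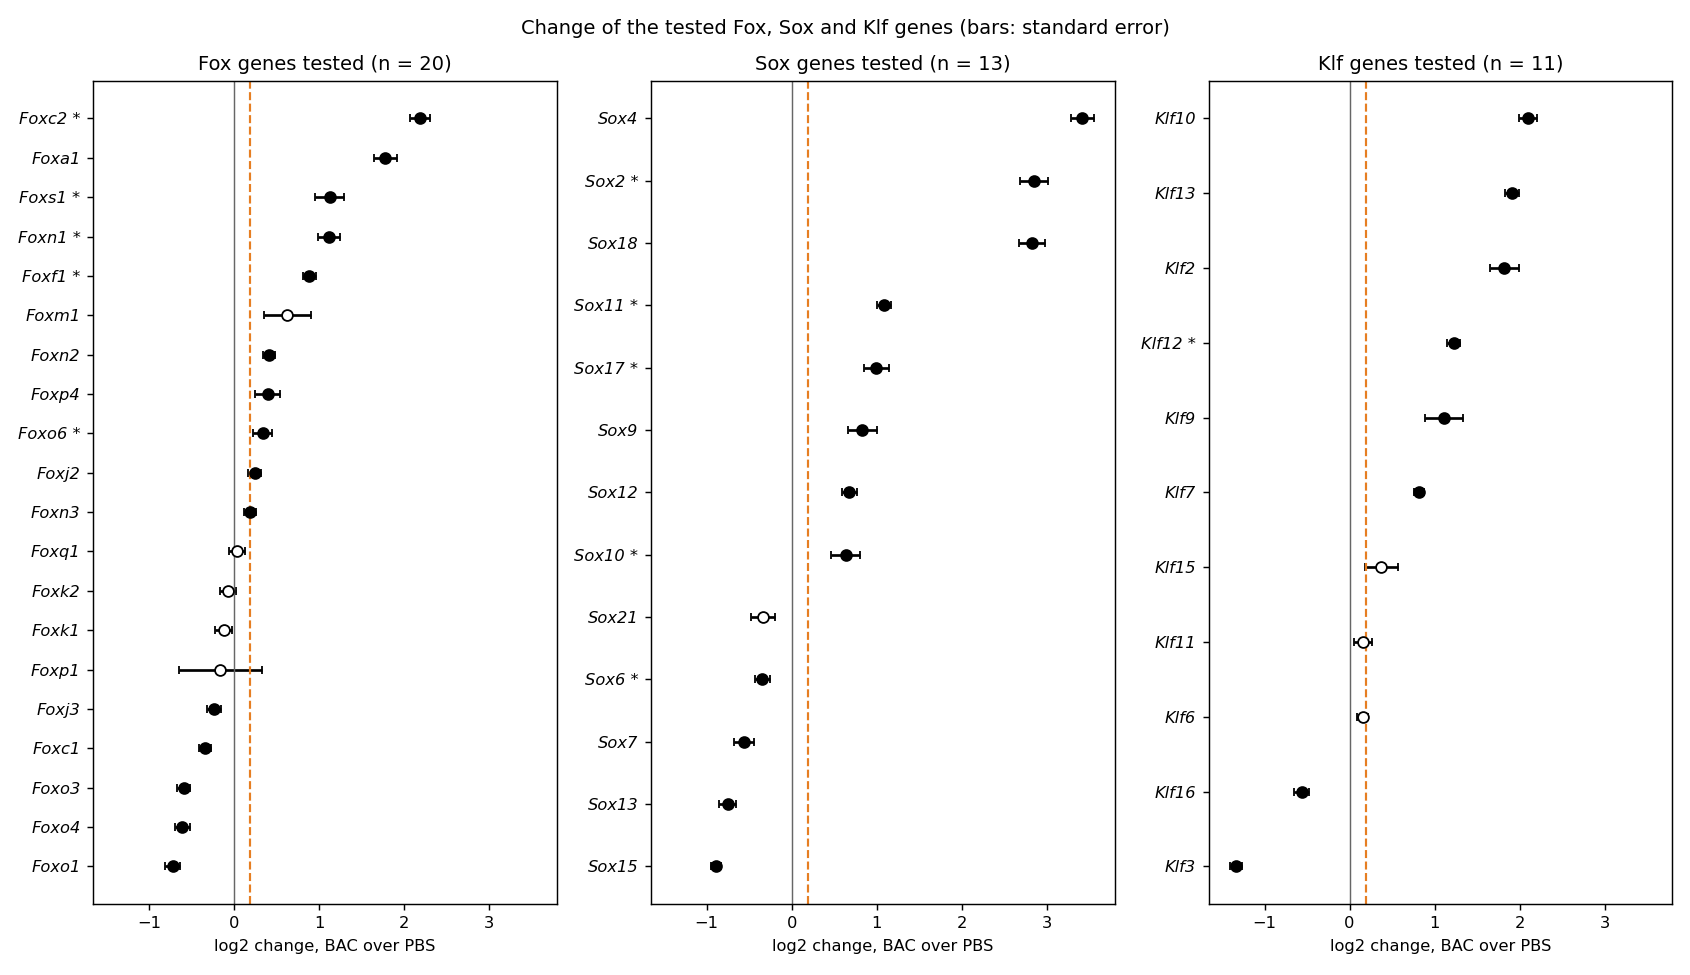
Log2 change of the 44 tested genes, BAC over PBS (x axis), with bars for the standard error, filled points for an adjusted p under 0.05 and open points for the others. The orange dashed line marks the median of all tested genes, 0.19, and an asterisk a gene whose mean reached 0.5 FPKM in 1 group only. Sox4 lies farthest to the right at 3.42 and Klf3 farthest to the left at -1.34.

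The family sums differed by at most 1.16-fold between the groups, while the share of single genes in them differed by more. The 13 Sox genes summed to 103.4 ± 12.2 FPKM with BAC and 89.0 ± 4.28 FPKM with PBS (SD, n = 4 each). The 12 Klf genes summed to 141.6 ± 6.27 FPKM with BAC and 127.4 ± 3.52 FPKM with PBS, and the 21 Fox genes to 137.1 ± 9.39 FPKM with BAC and 138.6 ± 13.3 FPKM with PBS. These sums are given without a test, and the order of the Klf sums turned under median-of-ratios scaling and quantile normalization. Sox15 held 27.0 ± 2.86% of the Sox sum with BAC and 58.6 ± 0.798% with PBS. Sox4 held 22.5 ± 1.78% with BAC and 1.43 ± 0.329% with PBS. The Klf sum was led by Klf6 in BAC corneas and by Klf3 in PBS corneas. Klf3 made up 14.5 ± 1.35% of it with BAC and 41.9 ± 2.34% with PBS, while Klf6 made up 34.4 ± 1.40% with BAC and 34.3 ± 1.73% with PBS. No Fox gene held over 15.4% of the Fox sum in any library.

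The SOXC genes Sox4, Sox11 and Sox12, which code for closely related activators active in progenitor cells of nerve, heart and skeleton, all rose with BAC. Their summed level was 26.6 ± 3.83 FPKM with BAC and 2.21 ± 0.424 FPKM with PBS (SD, n = 4 each). The grouping into subgroups follows textbook homology and was written after the values were seen. Sox4 carried most of this sum. Sox4 (ENSMUSG00000076431.4, chr13:28948919-28953713 on the minus strand, in GRCm38), a factor tied to mesenchymal conversion and survival of progenitors, was at 26.0, 25.1, 24.4 and 17.8 FPKM in the 4 BAC libraries, against 1.60, 0.991, 1.43 and 1.06 FPKM in the 4 PBS libraries. All 4 BAC libraries lay far above all PBS libraries, with library BAC 4 the lowest of its group. Sox4 was 18.3-fold higher by group means, with a log2 change of 3.42 ± 0.14 (SE, limma, adjusted p = 6.41e-08), which was the largest log2 change among the tested members. It ranked second among the Sox genes by mean level in BAC corneas and sixth in PBS corneas.

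Sox11, the close partner of Sox4 in neurons and mesenchyme, was at 1.64, 1.52, 1.26 and 1.32 FPKM in the 4 BAC libraries, against 0.220, 0.125, 0.117 and 0.136 FPKM in the 4 PBS libraries. The groups did not overlap and the rise was 9.60-fold, with a log2 change of 1.08 ± 0.08 (SE, limma, adjusted p = 2.47e-06), from a PBS level low enough that the gene was testable only through the BAC libraries. Sox12, the third and least potent SOXC activator, averaged 1.85 ± 0.102 FPKM with BAC and 0.789 ± 0.186 FPKM with PBS, with a log2 change of 0.68 ± 0.09 (SE, limma, adjusted p = 1.24e-04). Its groups did not overlap either, although its change of 0.15 under quantile normalization did not pass.

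The promoters of the SOXC genes are shown because the 3 genes rose together. The windows are those of RefSeq in GRCm38.p6, from 250 bases before to 50 bases after a start, read 5′ to 3′ on the gene's strand. They lie at chr13:28953650-28953949, minus strand, for Sox4, at chr12:27342669-27342968, minus strand, for Sox11, and at chr2:152397997-152398296, minus strand, for Sox12. Capitals mark each match, on either strand, of the CACCC box (CACCC or GGGTG), the GC box (GGGCGG or CCGCCC), a forkhead core (TGTTTAC or GTAAACA) and a SOX core (AACAAT or ATTGTT).
Sox4: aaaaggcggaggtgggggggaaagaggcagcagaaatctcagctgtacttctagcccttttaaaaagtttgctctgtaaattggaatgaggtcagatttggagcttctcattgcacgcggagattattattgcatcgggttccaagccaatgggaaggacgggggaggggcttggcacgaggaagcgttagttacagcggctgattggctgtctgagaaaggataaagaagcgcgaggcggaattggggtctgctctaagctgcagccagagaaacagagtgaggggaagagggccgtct
Sox11: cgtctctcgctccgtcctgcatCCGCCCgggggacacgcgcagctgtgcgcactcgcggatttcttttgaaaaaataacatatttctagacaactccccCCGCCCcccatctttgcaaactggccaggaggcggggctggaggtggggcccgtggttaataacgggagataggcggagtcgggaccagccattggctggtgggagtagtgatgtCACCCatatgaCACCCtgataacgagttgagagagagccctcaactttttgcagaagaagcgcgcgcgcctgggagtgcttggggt
Sox12: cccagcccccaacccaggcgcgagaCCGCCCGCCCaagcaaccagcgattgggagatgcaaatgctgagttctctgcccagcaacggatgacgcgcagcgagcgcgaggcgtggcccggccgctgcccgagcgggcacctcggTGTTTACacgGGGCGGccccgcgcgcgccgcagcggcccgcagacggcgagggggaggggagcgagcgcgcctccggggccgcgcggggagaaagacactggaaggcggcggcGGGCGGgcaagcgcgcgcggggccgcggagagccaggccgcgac
The Sox4 window holds none of these letters, the Sox11 window 2 CACCC boxes and 2 GC boxes, and the Sox12 window 4 GC boxes and 1 forkhead core, with 2 of the GC boxes overlapping. A match of letters is a description and not a binding site.

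Of the SOXB genes, Sox2 rose and Sox21 did not pass. Sox2, a factor of pluripotent, neural and early lens cells, was at 9.90, 7.77, 7.97 and 4.98 FPKM in the 4 BAC libraries, against 0.282, 0.186, 0.0954 and 0.137 FPKM in the 4 PBS libraries. Every BAC library was above every PBS library, with library BAC 4 again the lowest of its group and PBS values close to 0. The difference was 43.8-fold, with a log2 change of 2.85 ± 0.16 (SE, limma, adjusted p = 5.36e-07), and Sox2 was testable only through the BAC libraries. Sox21, a repressor that can oppose Sox2 and is known from hair and other epithelia of the mouse, was at 7.33, 6.68, 5.23 and 4.07 FPKM in the 4 BAC libraries, against 7.43, 7.34, 7.41 and 7.69 FPKM in the 4 PBS libraries. All BAC values were lower than all PBS values, but the highest BAC and the lowest PBS value nearly touched, and the PBS libraries were far more uniform. The change was not past the threshold, with a log2 change of -0.34 ± 0.14 (SE, limma, adjusted p = 0.0612), and it passed without library BAC 1 (log2 change -0.44), without library BAC 2 (-0.40), and under median-of-ratios scaling (-0.53) and quantile normalization (-0.58).

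Sox15, the only member of the SOXG subgroup and known from placental trophoblast and muscle precursors of the mouse, was the most abundant Sox gene in both groups and fell with BAC. Sox15 (ENSMUSG00000041287.5, chr11:69655314-69656727 on the plus strand) was at 30.0, 26.6, 26.6 and 27.4 FPKM in the 4 BAC libraries, against 51.0, 52.0, 55.5 and 50.1 FPKM in the 4 PBS libraries. The groups were well separated, with a spread of a few FPKM inside each. It was 1.89-fold lower with BAC, with a log2 change of -0.89 ± 0.06 (SE, limma, adjusted p = 1.49e-06).

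The SOXF genes, which direct the formation of blood and lymph vessels, split. Sox18, known for starting the lymphatic program in vein endothelium, was at 12.1, 9.91, 11.2 and 8.26 FPKM in the 4 BAC libraries, against 0.719, 0.245, 0.509 and 0.983 FPKM in the 4 PBS libraries. Sox18 rose 16.9-fold, with a log2 change of 2.83 ± 0.16 (SE, limma, adjusted p = 4.39e-07), and no library of either group came near the other group. Sox17, a factor of arterial endothelium and endoderm, averaged 1.23 ± 0.452 FPKM with BAC and 0.0987 ± 0.0402 FPKM with PBS, with a log2 change of 1.00 ± 0.15 (SE, limma, adjusted p = 2.51e-04), and was testable only through the BAC libraries. Sox7, the third SOXF gene, moved the other way and was the second most abundant Sox gene in PBS corneas, at 9.60, 10.4, 7.60 and 6.90 FPKM in the 4 BAC libraries, against 12.3, 12.6, 14.1 and 13.4 FPKM in the 4 PBS libraries. It fell 1.52-fold, with a log2 change of -0.56 ± 0.12 (SE, limma, adjusted p = 0.00217), without overlap between the groups. In the same libraries all 17 tested endothelial markers rose, their summed level running from 184.8 to 238.1 FPKM with BAC and from 11.1 to 25.0 FPKM with PBS, and their part in the changes of Sox17 and Sox18 was not tested. Of these 17 markers, 4 were testable only through the BAC libraries. Cdh5, the cadherin of endothelial junctions, was 26.4-fold higher, Esam, an endothelial adhesion molecule, 19.0-fold and Egfl7, a secreted endothelial factor, 9.79-fold.

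Both SOXE genes rose. Sox9, a master regulator of cartilage that also marks epithelial progenitors, was at 12.5, 11.8, 8.13 and 9.27 FPKM in the 4 BAC libraries, against 4.00, 5.57, 7.18 and 5.10 FPKM in the 4 PBS libraries. Library PBS 3 came closest to the BAC libraries, and the groups did not overlap. Sox9 was 1.91-fold higher, with a log2 change of 0.83 ± 0.17 (SE, limma, adjusted p = 0.00200). Of 8 tested matrix genes known as SOX9 targets or partners, 3 rose, 1 fell and 4 did not pass. Col11a1, a fibrillar collagen of cartilage, was 11.2-fold higher, Comp, a cartilage matrix protein, 3.17-fold higher, and Matn3, a cartilage matrilin, reached 2.36 ± 0.559 FPKM in BAC corneas but was listed at 0 in every PBS library. Cnmd, an antiangiogenic cartilage protein, was lower, with a ratio of means of 0.0894, or 0.0560 without library BAC 4 and 0.137 without library PBS 1.

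Sox10, the factor of Schwann cells and melanocytes, was at 0.541, 0.779, 0.572 and 1.70 FPKM with BAC and 0.171, 0.150, 0.174 and 0.273 FPKM with PBS, with a log2 change of 0.63 ± 0.17 (SE, limma, adjusted p = 0.00846). Library BAC 4 was the highest, the groups did not overlap, and the change without that library was 0.45, still past the threshold, while 0.10 under quantile normalization did not pass. In that library the summed level of 7 melanocyte markers was also the highest of all, 128.7 FPKM, against 17.9 to 25.1 FPKM in the other BAC libraries and 28.2 to 90.2 FPKM in the PBS libraries. Kit, a receptor that other cells also carry, led the PBS sums at 31.3 ± 4.56 FPKM and was at 3.45 ± 0.349 FPKM with BAC (SD, n = 4 each). The other 6 markers summed to 18.8, 13.99, 21.97 and 125.4 FPKM in the 4 BAC libraries, against 3.36, 5.68, 5.52 and 54.7 FPKM in the 4 PBS libraries. Library 4 was thus the highest of its group with BAC and with PBS. Of the 6 melanocyte markers tested, 1 rose (Mitf), 1 fell (Kit) and 4 did not pass. Of 12 Schwann cell markers 2 rose, 3 fell and 7 did not pass. Egr2, which switches on myelination, was 32.5-fold higher from levels near 0 and Scn7a, a sodium channel, 2.99-fold higher, while Mbp, a myelin protein, was 1.71-fold lower and Mal, a membrane protein that epithelia also express, 4.38-fold lower. The part of either cell type in the Sox10 values was not tested. The Schwann cell count of 2 was 5 without library BAC 1, and 4 without BAC 3 or without PBS 4, and 3 melanocyte markers rose without PBS 4.

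The SOXD genes, which lack an activation domain of their own and act beside other SOX factors, both fell. Sox13, known from gamma-delta T cells and developing cartilage, averaged 3.62 ± 0.617 FPKM with BAC and 6.74 ± 0.437 FPKM with PBS, which was 1.86-fold lower, with a log2 change of -0.75 ± 0.10 (SE, limma, adjusted p = 1.38e-04). Sox6, known from cartilage, muscle and red cell formation, was low in both groups, averaging 0.421 ± 0.132 FPKM with BAC and 0.804 ± 0.105 FPKM with PBS, with a log2 change of -0.35 ± 0.09 (SE, limma, adjusted p = 0.00747). In both genes all BAC libraries were below all PBS libraries, and Sox6 was testable only through the PBS libraries. The SOXD sum was 4.04 ± 0.675 FPKM with BAC and 7.55 ± 0.482 FPKM with PBS.

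**Figure D3:**
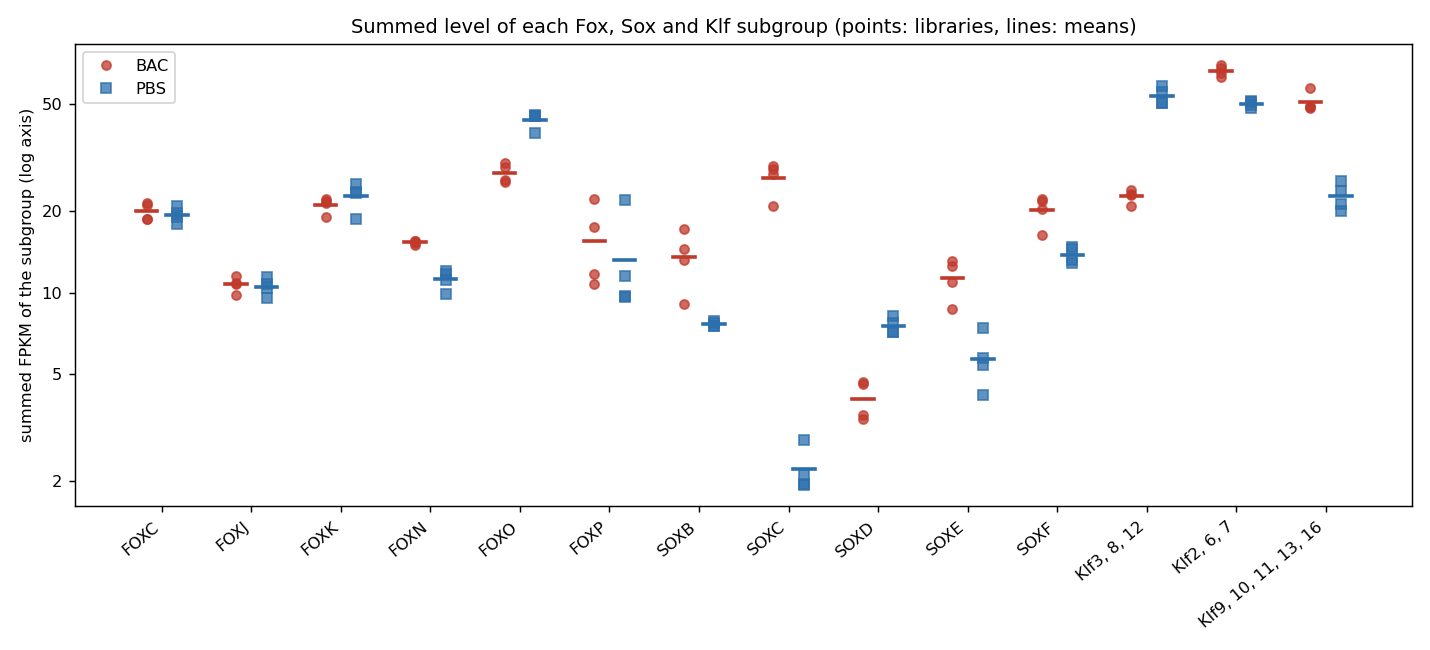
Summed FPKM of the subgroups with more than 1 gene (y axis, log scale), with 4 BAC libraries as red circles left of 4 PBS libraries as blue squares and a line at each mean. The SOXC sum lies between 21.0 and 29.4 FPKM with BAC and between 1.93 and 2.83 FPKM with PBS, while FOXC, FOXJ, FOXK and FOXP overlap.

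Among the Klf genes, the repressor Klf3 fell while the TGF-beta-responsive Klf10, the endothelial Klf2 and the related Klf13 rose by over 4-fold each. Klf3, Klf8 and Klf12 share a motif that recruits the corepressor CtBP. Klf3 (ENSMUSG00000029178.14, chr5:64803388-64832901 on the plus strand) was at 20.8, 21.7, 20.4 and 19.0 FPKM in the 4 BAC libraries, against 50.1, 58.2, 55.0 and 50.2 FPKM in the 4 PBS libraries. The BAC libraries lay within 3 FPKM of each other and far under the PBS libraries. Klf3 was 2.61-fold lower, with a log2 change of -1.34 ± 0.07 (SE, limma, adjusted p = 2.85e-07), the lowest change of all tested members. Klf12, a repressor first known from the AP-2 alpha gene, was at 1.70, 1.69, 1.78 and 1.52 FPKM in the 4 BAC libraries, against 0.174, 0.0997, 0.216 and 0.0915 FPKM in the 4 PBS libraries. It rose 11.5-fold, with a log2 change of 1.22 ± 0.08 (SE, limma, adjusted p = 7.58e-07), from PBS levels that left it testable only through BAC. Klf8, another repressor of this subgroup, was too low over all libraries to be tested, at 0.367 to 0.745 FPKM with BAC and 0 to 0.0941 FPKM with PBS. The sum of the 3 genes was 22.7 ± 1.26 FPKM with BAC and 53.6 ± 3.97 FPKM with PBS (SD, n = 4 each), nearly all of it Klf3 in PBS corneas.

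Klf9, Klf10, Klf11, Klf13 and Klf16 share a short motif that binds the SIN3 corepressor. Klf10 (ENSMUSG00000037465.10, chr15:38291463-38300706 on the minus strand), an early target of TGF-beta, was at 19.9, 21.0, 19.0 and 18.5 FPKM in the 4 BAC libraries, against 4.04, 3.04, 4.63 and 3.67 FPKM in the 4 PBS libraries. The groups were far apart, and Klf10 was 5.10-fold higher, with a log2 change of 2.098 ± 0.10 (SE, limma, adjusted p = 2.00e-07). Klf13, known as an activator of the chemokine gene Ccl5 in T cells, was at 8.35, 8.25, 8.33 and 9.72 FPKM in the 4 BAC libraries, against 1.56, 1.47, 1.40 and 1.88 FPKM in the 4 PBS libraries. It rose 5.496-fold, with a log2 change of 1.91 ± 0.09 (SE, limma, adjusted p = 1.21e-07), and library BAC 4 was the highest of its group. Klf9, induced by thyroid hormone and glucocorticoids, was at 11.6, 10.03, 13.1 and 19.6 FPKM in the 4 BAC libraries, against 4.75, 3.98, 6.32 and 7.89 FPKM in the 4 PBS libraries. Library BAC 4 was again the highest, by a wide gap, and library PBS 4 the highest of the PBS group, with no overlap. Klf9 was 2.37-fold higher, with a log2 change of 1.11 ± 0.23 (SE, limma, adjusted p = 0.00182), and without library BAC 4 its change was 0.93, still past the threshold.

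Klf16, a repressor of dopamine receptor and other GC-rich promoters, went the other way, at 5.33, 5.78, 4.74 and 6.38 FPKM in the 4 BAC libraries, against 8.35, 8.71, 8.11 and 9.41 FPKM in the 4 PBS libraries. It was 1.55-fold lower without overlap, with a log2 change of -0.56 ± 0.09 (SE, limma, adjusted p = 3.98e-04). Klf11, a close relative of Klf10, averaged 3.43 ± 0.586 FPKM with BAC and 2.95 ± 0.340 FPKM with PBS and did not pass, with a log2 change of 0.16 ± 0.11 (SE, limma, adjusted p = 0.220), and its sign turned under median-of-ratios scaling and quantile normalization. The 5 genes of this subgroup summed to 50.8 ± 4.30 FPKM with BAC and 22.8 ± 2.65 FPKM with PBS. Of 12 tested Groucho, CtBP and SIN3 corepressor genes 7 rose, 1 fell and 4 did not pass, and without library PBS 3 the number that fell was 2. Sap30, a SIN3 complex subunit, was 3.13-fold higher and Tle1, a Groucho protein, 5.14-fold higher. Wwp1, a ubiquitin ligase listed with them, was 1.37-fold higher, and Tle4, another Groucho protein, 3.12-fold lower.

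The activator subgroup of Klf2, Klf6 and Klf7 held the most abundant Klf gene in BAC corneas. Klf6, a ubiquitous factor induced by injury in many tissues, was at 48.1, 44.8, 50.4 and 51.7 FPKM in the 4 BAC libraries, against 45.3, 43.6, 45.3 and 40.6 FPKM in the 4 PBS libraries. The groups overlapped and the change did not pass, with a log2 change of 0.15 ± 0.06 (SE, limma, adjusted p = 0.0593), although it passed without library BAC 2 (log2 change 0.19) and after rescaling to a common total (0.17) and turned negative under median-of-ratios scaling. Klf2, which keeps endothelium quiescent under blood flow, was at 8.48, 9.75, 9.36 and 9.84 FPKM in the 4 BAC libraries, against 1.70, 1.44, 1.55 and 3.36 FPKM in the 4 PBS libraries. Library PBS 4 was the highest of its group and still far under the BAC libraries. Klf2 was 4.65-fold higher, with a log2 change of 1.82 ± 0.17 (SE, limma, adjusted p = 1.21e-05). Of 8 tested endothelial target genes of KLF2 and KLF4, 7 rose and 1 fell, among them Nos3, the endothelial nitric oxide synthase, 9.14-fold higher, and S1pr1, a lipid receptor of endothelium, 15.96-fold higher. Of these 8 genes, 3 were testable only through the BAC libraries. Eng, an endothelial TGF-beta coreceptor, was 8.57-fold higher and Sele, an adhesion molecule for leukocytes, 51.2-fold higher from levels near 0. The endothelial markers named beside Sox18 rose in the same libraries, and their part in the Klf2 change was not tested.

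Klf7, known from growing axons, varied little inside each group, averaging 8.16 ± 0.237 FPKM with BAC and 4.21 ± 0.198 FPKM with PBS, 1.94-fold higher, with a log2 change of 0.81 ± 0.06 (SE, limma, adjusted p = 2.54e-06). Klf15, a regulator of glucose and amino acid metabolism, averaged 1.80 ± 0.848 FPKM with BAC and 1.11 ± 0.280 FPKM with PBS and did not pass, with a log2 change of 0.37 ± 0.19 (SE, limma, adjusted p = 0.119), although it passed without library BAC 3 (log2 change 0.50) and turned negative under quantile normalization. Klf4 and Klf5, the epithelial members left out by the rule, both fell, and with them the Klf sum was 254.9 ± 4.20 FPKM with BAC and 504.3 ± 42.2 FPKM with PBS (SD, n = 4 each). Of 5 tested Sp genes, the zinc finger relatives of the Klf family, none rose, 1 fell and 4 did not pass. Sp6, known from ectodermal appendages such as teeth and hair in the mouse, was 5.04-fold lower, while Sp3, a ubiquitous GC-box factor, averaged 25.2 ± 1.05 FPKM with BAC and 27.6 ± 1.15 FPKM with PBS.

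The promoter windows of Klf3 and Klf9 were picked because these genes moved in opposite directions and their windows hold different letters. The pair therefore does not stand for the family. The windows, cut and marked as for the SOXC genes, lie at chr5:64803271-64803570, plus strand, and at chr19:23140976-23141275, plus strand.
Klf3: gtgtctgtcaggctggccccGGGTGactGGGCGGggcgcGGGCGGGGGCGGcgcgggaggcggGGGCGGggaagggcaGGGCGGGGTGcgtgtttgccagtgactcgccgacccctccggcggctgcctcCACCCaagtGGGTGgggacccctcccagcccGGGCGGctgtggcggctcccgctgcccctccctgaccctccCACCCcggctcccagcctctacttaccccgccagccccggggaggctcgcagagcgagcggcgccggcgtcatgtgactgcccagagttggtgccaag
Klf9: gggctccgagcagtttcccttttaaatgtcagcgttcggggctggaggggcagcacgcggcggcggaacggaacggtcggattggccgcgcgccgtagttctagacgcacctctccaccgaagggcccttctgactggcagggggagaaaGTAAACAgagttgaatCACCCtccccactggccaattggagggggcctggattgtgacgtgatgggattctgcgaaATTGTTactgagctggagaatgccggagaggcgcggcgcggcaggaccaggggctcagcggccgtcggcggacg
The Klf3 window holds 5 CACCC boxes and 6 GC boxes, some of which overlap, and the Klf9 window 1 CACCC box, 1 forkhead core and 1 SOX core. The windows of Klf2, Klf7 and Klf13, which also rose, hold CACCC and GC boxes and neither core. A link between letters and direction was not tested. RefSeq had a promoter entry for 30 of the 46 genes, and in 28 the entry lay within 500 bases of the start of the deposited leading transcript. A GC box was found in 22 of these 28 windows, beside 35.7% of all 32851 promoter windows of the same length. A CACCC box was found in 18 of 28, beside 57.5% of all windows. The forkhead core was found in 3 (Foxa1, Klf9 and Sox12), beside 3.65%, and the SOX core in 2 (Klf8 and Klf9), beside 10.7%. The 2 sets of windows are not alike. Members have 1 window per gene, near the leading transcript, while the 32851 windows were taken whether or not their genes are expressed in cornea. The shares are therefore a description only.

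The tested Fox genes with the largest rises on the log2(FPKM + 1) scale were Foxc2, Foxa1, Foxs1 and Foxn1, all at low level in PBS corneas. By the ratio of means Foxf1 came second to Foxc2 among the tested Fox genes. Foxp3, which was not tested, had a higher ratio than both, from PBS values at or near 0. The 3 FOXO genes that are abundant in cornea fell together. Foxc1, which shapes the anterior segment and whose human mutations cause Axenfeld-Rieger anomalies, was at 15.4, 16.1, 14.3 and 13.4 FPKM in the 4 BAC libraries, against 18.8, 17.8, 20.4 and 19.2 FPKM in the 4 PBS libraries. The groups were close but did not overlap. Foxc1 was 1.28-fold lower, with a log2 change of -0.34 ± 0.07 (SE, limma, adjusted p = 0.00241). Foxc2 (ENSMUSG00000046714.7, chr8:121116171-121118895 on the plus strand), its close relative in neural crest and lymphatic valves, was at 6.02, 5.02, 4.49 and 5.25 FPKM in the 4 BAC libraries, against 0.193, 0.214, 0.546 and 0.486 FPKM in the 4 PBS libraries. Foxc2 rose 14.4-fold, with a log2 change of 2.19 ± 0.12 (SE, limma, adjusted p = 3.34e-07), and was testable only through the BAC libraries. The 2 genes together came to 20.01 ± 1.49 FPKM with BAC and 19.4 ± 1.24 FPKM with PBS (SD, n = 4 each). Of 9 tested genes that act beside Foxc1 in the neural crest and anterior segment, 4 rose, 3 fell and 2 did not pass. Tfap2b, a neural crest factor, was 2.43-fold higher, Tfap2a 2.58-fold lower and Pax6, the master regulator of the eye, 2.86-fold lower.

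Foxa1, a pioneer factor of gland, gut and airway epithelia, was at 4.30, 4.78, 4.66 and 3.22 FPKM in the 4 BAC libraries, against 0.703, 0.716, 0.274 and 0.413 FPKM in the 4 PBS libraries. All BAC libraries were above all PBS libraries, and the rise was 8.06-fold, with a log2 change of 1.78 ± 0.14 (SE, limma, adjusted p = 2.88e-06). Foxn1, the gene of the nude mouse and a factor of keratinocyte and thymic epithelial differentiation, was at 1.72, 1.93, 1.201 and 1.199 FPKM in the 4 BAC libraries, against 0.115, 0.173, 0.322 and 0 FPKM in the 4 PBS libraries. It was listed at 0 in PBS 4, was testable only through BAC and rose with a log2 change of 1.12 ± 0.13 (SE, limma, adjusted p = 4.34e-05). Its ratio of means was 9.92 with all libraries and 15.7 without library PBS 3. Foxq1, the gene of the satin mouse coat and the most abundant Fox gene in BAC corneas, was at 16.5, 16.4, 13.7 and 13.4 FPKM in the 4 BAC libraries, against 13.7, 15.1, 16.3 and 13.2 FPKM in the 4 PBS libraries. The groups overlapped throughout and the change did not pass, with a log2 change of 0.04 ± 0.09 (SE, limma, adjusted p = 0.742), and its sign turned under median-of-ratios scaling and quantile normalization.

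Foxs1, a factor of neural crest derivatives and vessel walls, was at 1.68, 1.25, 2.35 and 0.925 FPKM in the 4 BAC libraries, against 0.0747, 0.0773, 0.0745 and 0.384 FPKM in the 4 PBS libraries. Library PBS 4 stood above the other PBS libraries, yet under every BAC library. The change was 1.12 ± 0.17, adjusted p = 3.04e-04 by limma (log2, SE), and the ratio of means was 10.2 with all libraries and 20.6 without PBS 4. Foxf1, a factor of the mesenchyme around gut and lung and of vessels, averaged 0.985 ± 0.143 FPKM with BAC and 0.0710 ± 0.0104 FPKM with PBS, which was 13.9-fold higher, with a log2 change of 0.89 ± 0.08 (SE, limma, adjusted p = 8.04e-06). Both genes were testable only through the BAC libraries. Of 12 mural cell and myofibroblast markers 11 rose and 1 fell, with summed levels from 423.4 to 568.8 FPKM with BAC and 44.2 to 78.7 FPKM with PBS. Of these 12 markers, 4 were testable only through the BAC libraries. Notch3, the one that fell, led the PBS sums, and the others summed to 414.4 to 559.9 FPKM with BAC and 14.6 to 48.5 FPKM with PBS. Rgs5, a pericyte marker, was 17.3-fold higher and Mcam, found on pericytes and endothelium, 26.3-fold higher. Abcc9 and Kcnj8, which form the potassium channel of mural cells, were 12.4-fold and 17.1-fold higher. Their part in the changes of Foxs1 and Foxf1 was not tested.

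The FOXO genes code for factors that insulin and growth factor signals drive out of the nucleus through AKT. Foxo3 was at 12.9, 12.5, 10.9 and 10.7 FPKM in the 4 BAC libraries, against 16.9, 18.4, 18.5 and 18.8 FPKM in the 4 PBS libraries. Foxo3 fell 1.55-fold, with a log2 change of -0.59 ± 0.08 (SE, limma, adjusted p = 9.56e-05), and the groups did not overlap. Foxo4, which lies on the X chromosome, was at 9.999, 9.66, 8.37 and 9.45 FPKM in the 4 BAC libraries, against 12.6, 15.1, 15.8 and 15.7 FPKM in the 4 PBS libraries. It fell 1.58-fold, with a log2 change of -0.61 ± 0.09 (SE, limma, adjusted p = 2.23e-04), with library PBS 1 the lowest of its group and still above all BAC libraries. Foxo1, the main FOXO gene of liver and endothelium, averaged 5.81 ± 0.449 FPKM with BAC and 10.2 ± 1.04 FPKM with PBS, which was 1.76-fold lower, with a log2 change of -0.72 ± 0.09 (SE, limma, adjusted p = 6.41e-05). Foxo6, a low member known from brain, ran from 0.683 to 1.08 FPKM with BAC and from 0.218 to 0.652 FPKM with PBS. Foxo6 rose as deposited, but the call was lost without BAC 1, PBS 2 or PBS 4 and under median-of-ratios scaling, and its change was -0.21 under quantile normalization. The FOXO sum was 27.8 ± 2.14 FPKM with BAC and 43.7 ± 3.16 FPKM with PBS.

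The genes around the FOXO factors moved in both directions. Of 22 upstream genes of the insulin and AKT pathway 8 rose, 5 fell and 9 did not pass. Irs1, a docking protein of the insulin receptor, was 8.88-fold higher, Pik3cd, a PI3-kinase of leukocytes, 6.71-fold higher and Akt1, the kinase itself, 1.52-fold higher, while Sgk3, a related kinase, was 3.31-fold lower. The 5 that fell became 3 without library BAC 1 or without BAC 2, 10 under median-of-ratios scaling and 12 under quantile normalization. Of 20 tested FOXO target genes 5 rose, 6 fell and 9 did not pass, with a median change of -0.15. Cat, which breaks down hydrogen peroxide, was 3.21-fold higher. Cdkn1a, the cell cycle inhibitor p21, was 2.12-fold lower, Sesn1, a stress-induced inhibitor of mTORC1, 1.78-fold lower and Trib1, a pseudokinase, 2.17-fold lower. Under median-of-ratios scaling 11 of the targets fell, and under quantile normalization 3 rose.

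Foxm1, the activator of genes for mitosis, was at 5.96, 7.36, 2.52 and 3.40 FPKM with BAC and 1.84, 3.49, 2.02 and 3.09 FPKM with PBS. Libraries BAC 1 and BAC 2 were high and BAC 3 and BAC 4 close to the PBS values, so that the groups overlapped. The change did not pass, with a log2 change of 0.63 ± 0.28 (SE, limma, adjusted p = 0.0705), and it passed without library BAC 3 (log2 change 0.84). Of 20 FOXM1 target genes 19 rose, none fell and 1 did not pass, beside the 45.1% of all tested genes that rose, with a median change of 1.199. Cks1b, a subunit of cyclin-dependent kinases, was 3.19-fold higher, Cenpa, the centromeric histone, 3.20-fold higher, Cdc25b, a phosphatase that starts mitosis, 3.46-fold higher and Ccnb1, the mitotic cyclin B1, 2.38-fold higher.

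Foxk1 and Foxk2, regulators of glycolysis and autophagy, did not pass as deposited. Foxk2 was at 12.1, 12.6, 10.4 and 12.7 FPKM in the 4 BAC libraries, against 10.5, 13.7, 12.96 and 13.2 FPKM in the 4 PBS libraries. Its groups overlapped, with a log2 change of -0.07 ± 0.10 (SE, limma, adjusted p = 0.542), and Foxk1 ran from 8.67 to 9.69 FPKM with BAC and from 8.22 to 11.6 FPKM with PBS. Both passed as lower under median-of-ratios scaling, with changes of -0.27 for Foxk2 and -0.32 for Foxk1, and Foxk1 also passed without library PBS 1 (-0.21) and under quantile normalization (-0.30). Foxn2, a little-studied broadly expressed gene, averaged 5.79 ± 0.235 FPKM with BAC and 4.11 ± 0.352 FPKM with PBS, with a log2 change of 0.41 ± 0.07 (SE, limma, adjusted p = 7.41e-04), and the call was lost under quantile normalization (0.12). Foxn3, a repressor first known as a checkpoint suppressor, averaged 8.03 ± 0.0893 FPKM with BAC and 6.92 ± 0.569 FPKM with PBS. Its change of 0.19 ± 0.07, adjusted p = 0.0335 by limma (log2, SE), lost the call when any 1 of the 4 BAC libraries or PBS 1 was left out, and was -0.002 under median-of-ratios scaling and -0.037 under quantile normalization.

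Foxj2 and Foxj3, related factors known from the germ line and from muscle of the mouse, moved in opposite directions by small amounts. Foxj2 averaged 6.43 ± 0.436 FPKM with BAC and 5.28 ± 0.348 FPKM with PBS, with a log2 change of 0.24 ± 0.07 (SE, limma, adjusted p = 0.0145), and its change was 0.055 under median-of-ratios scaling, no longer past the threshold, and -0.021 under quantile normalization. Foxj3 averaged 4.30 ± 0.330 FPKM with BAC and 5.23 ± 0.455 FPKM with PBS, with a log2 change of -0.23 ± 0.08 (SE, limma, adjusted p = 0.0274), and overlapped between the groups. The Foxj3 call was lost without BAC 1, BAC 3, PBS 2, PBS 3 or PBS 4, and after rescaling to a common total (-0.22).

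Foxp4, a factor of lung and gut epithelium, ran from 7.08 to 12.01 FPKM with BAC and from 5.88 to 7.43 FPKM with PBS. It rose as deposited, with overlap, and lost the call without BAC 1, BAC 3, PBS 1, PBS 2 or PBS 4 and under median-of-ratios scaling and quantile normalization. Foxp3, the factor that defines regulatory T cells, was too low over all libraries to be tested. Foxp3 was at 0.623, 0.989, 0.493 and 0.840 FPKM with BAC and 0, 0.0256, 0 and 0.0240 FPKM with PBS. Of 7 tested T and B lymphocyte markers 6 rose and 1 fell, beside 45.1% and 22.6% of all tested genes. Of these 7 markers, 5 were testable only through the BAC libraries, and of the other 2, 1 rose and 1 fell. The summed levels of the list ran from 54.9 to 66.5 FPKM with BAC and from 28.5 to 32.8 FPKM with PBS. The marker that fell was Ikzf2, which made up 96.9% of the mean PBS sum, at 15.96 ± 2.22 FPKM with BAC and 28.7 ± 2.26 FPKM with PBS (SD, n = 4 each). The other 8 markers in the table summed to 41.96 to 50.7 FPKM with BAC and 0.524 to 1.42 FPKM with PBS, and Ctla4 and Cd3d were listed at 0 in all PBS libraries. Most of the BAC sum of these 8 was Thy1 alone, at 33.8 ± 4.47 FPKM with BAC and 0.649 ± 0.283 FPKM with PBS. Ctla4, an inhibitory receptor of T cells, reached 3.26 ± 0.391 FPKM with BAC. Cd4 was 51.7-fold and Il2ra, the IL-2 receptor alpha chain, 29.0-fold higher from levels near 0, and Il2ra 44.6-fold without library PBS 2. Their part in the Foxp3 values was not tested.

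Foxp1, a repressor with roles in B cells, heart and lung, was uneven across libraries. Foxp1 was at 4.87, 2.89, 11.6 and 2.87 FPKM with BAC and 3.07, 4.69, 14.6 and 3.81 FPKM with PBS. Libraries BAC 3 and PBS 3 were high and the other 6 lay between 2.87 and 4.87 FPKM. The change did not pass, with a log2 change of -0.16 ± 0.49 (SE, limma, adjusted p = 0.783), and leaving out both libraries numbered 3, an alternative chosen after seeing the data, gave -0.11. The table lists 11 transcripts of Foxp1, the most of any member. Foxp1-204 was at 14.4 FPKM in BAC 3 and 25.4 FPKM in PBS 3, against 0 to 3.11 FPKM in the other libraries. Foxp1-230 ran from 0 to 19.7 FPKM over the BAC libraries and from 3.88 to 9.96 FPKM over the PBS libraries. The gene values were 0.188 to 0.438 of the summed transcript values, so gene and transcript levels of Foxp1 are not on the same footing.

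**Figure D4:**
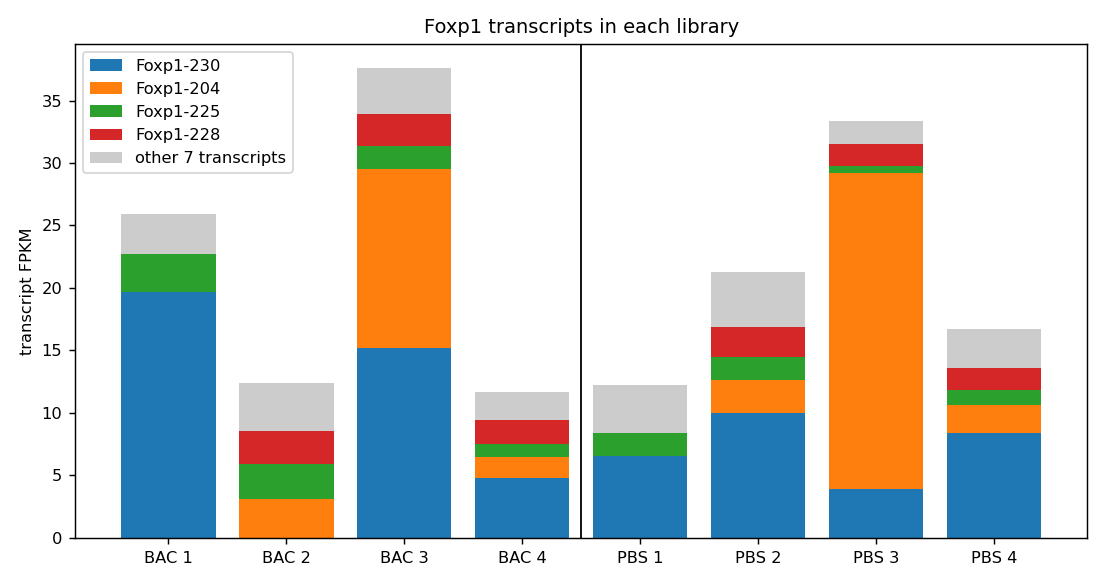
FPKM of the Foxp1 transcripts (y axis), stacked, in each of the 4 BAC libraries (left of the line) and the 4 PBS libraries (right). Foxp1-204 is the tallest segment of PBS 3, at 25.4 FPKM, is at 14.4 FPKM in BAC 3 and at most 3.11 FPKM in the other libraries.

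The 46 genes had 71 transcripts in the deposited transcript table, and 32 genes had only 1. Of 59 tested transcripts 21 rose, 9 fell and 29 did not pass, beside 34.6% of all 23349 tested transcripts past the threshold, 23.0% higher and 11.6% lower. No gene had a transcript that rose beside another that fell. In 4 genes (Foxp1, Klf15, Sox6 and Sox17) the transcript with the highest mean was not the same in both groups. Klf15-201, which covers the whole gene, held 71.2% of the Klf15 transcript total with BAC and 29.6% with PBS, but neither Klf15 transcript passed. Sox17-201 averaged 1.16 ± 0.767 FPKM in BAC corneas but was listed at 0 in every PBS library, so no fold is given. It rose with a log2 change of 1.02 ± 0.29 (SE, limma, adjusted p = 0.0278).

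In Foxm1 the short transcript Foxm1-207 rose while the main transcript Foxm1-201 did not pass. Foxm1-207 was at 0.914, 1.25, 0.703 and 1.03 FPKM with BAC and 0.250, 0.329, 0.133 and 0.0892 FPKM with PBS, without overlap. Its log2 change was 0.71 ± 0.14 (SE, limma, adjusted p = 0.00569). Foxm1-201 was at 6.57, 7.70, 2.39 and 3.31 FPKM with BAC and 1.99, 3.68, 2.13 and 3.32 FPKM with PBS. In Sox13 the longer transcript Sox13-205 fell, at 2.36 ± 0.466 FPKM with BAC and 5.11 ± 1.31 FPKM with PBS (SD, n = 4 each), with a log2 change of -0.84 ± 0.20 (SE, limma, adjusted p = 0.0131), while Sox13-203 did not pass. Klf3 was nearly a single transcript, Klf3-201 holding 98.3% of the Klf3 transcript total with BAC and 99.2% with PBS, and it fell with the gene.

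The remaining marker lists describe what else differed between the corneas. All 11 tested neutrophil markers and all 14 macrophage and dendritic cell markers rose, beside 45.1% of all tested genes. Of these, 9 neutrophil markers and 5 macrophage and dendritic cell markers were testable only through the BAC libraries. The neutrophil sum ran from 491.5 to 1407 FPKM with BAC, with BAC 3 the highest, and from 4.79 to 29.4 FPKM with PBS. The macrophage sum ran from 866.5 to 1120 FPKM with BAC and from 30.4 to 44.1 FPKM with PBS. Of 13 keratocyte markers 6 rose, 3 fell and 4 did not pass. Of 9 corneal endothelial markers 3 rose, 1 fell and 5 did not pass, with 5 that rose without library PBS 1 and 2 that fell without PBS 4. Of 4 tested lacrimal gland markers 2 rose and 2 did not pass, and 1 fell without BAC 4. Of 7 tested lens markers none passed, and 1 rose without library PBS 1, where the lens sum was 65.8 FPKM, against 3.84 to 5.46 FPKM over the BAC libraries and 3.06 to 4.39 FPKM in the other PBS libraries. The part of these cells in the levels of the Fox, Sox and Klf genes was not tested.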

How the data were processed

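Corneal RNA was isolated with Trizol and made into stranded libraries, per the labels' protocols. Groups and replicate numbers were read from the sample labels, and the main test used the replicate numbers only as names. Per the submitters' processing notes, the tools were HISAT2 2.1.0 and StringTie 1.3.3 and the build GRCm38. The authors deposited FPKM values, with 13437 gene rows and 25635 transcript rows. Each row is protein-coding, and each gene row has a mean of at least 0.501 FPKM in the higher group. In 20 of the 32 members with 1 transcript the gene value equals that transcript's within 0.1%, and in 21 members the gene value is below the sum of its transcripts in every library. The depth is not known. Of 300 low values checked in each library, 15.3% to 29.3% came within 0.05 of a whole number of reads, so whole reads could not be recovered and no count test was run. An exact 0 is called listed at 0.

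Genes with a mean of at least 0.5 FPKM over the 8 libraries (12967) were tested on log2(FPKM + 1) with limma 3.58.1 in R 4.3.3, with a 2-group model, a trended variance prior, two-sided p-values and Benjamini-Hochberg adjustment over all of them, at a threshold of 0.05. Transcripts (23349) were tested alike. The test was tried on simulated tables. Folds are ratios of mean FPKM. Each value is also recomputed with a pseudocount of 0.1, no filter, a filter of 2, 3 rescalings, other prior variances, a replicate block and each library left out. Per-library values are given for members changed by at least 1 on the log2 scale and for the 5 highest of each family, and up to 4 genes with the smallest adjusted p for each gene list. A gene named by this rule is counted in its list but not reported here. The members and lists were chosen with earlier results of these data known, and the subgroups after their values were seen. Promoter windows came from RefSeq (GRCm38.p6). Python 3.11.15 and matplotlib 3.10.9 were used for summaries and figures. The authors' own tables of fold changes were not used.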

Additional observations from a re-analysis of the deposited data

Results flagged for a closer look

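The 46 genes and 3 family sums gave 98 sets of 4 libraries of 1 group. In 7 of them, or 7.14%, a library lay far from the other 3 by Dixon's test, beside 6.61% over all tested genes and about 5% by chance. Foxp1 was at 14.6 FPKM in PBS 3, against 3.07 to 4.69 FPKM in the other PBS libraries. Klf13 was at 9.72 FPKM in BAC 4, against 8.25 to 8.35 FPKM in the other BAC libraries. Klf2 was at 3.36 FPKM in PBS 4, against 1.44 to 1.70 FPKM in the other PBS libraries, and Foxs1 at 0.384 FPKM in PBS 4, against 0.0745 to 0.0773 FPKM. Foxf1 was at 0.771 FPKM in BAC 2, against 1.04 to 1.08 FPKM in the other BAC libraries. Foxn3 was at 8.16 FPKM in BAC 2, against 7.97 to 7.99 FPKM in the other BAC libraries, and at 6.07 FPKM in PBS 1, against 7.10 to 7.26 FPKM in the other PBS libraries. The rises of Klf13, Klf2, Foxs1 and Foxf1 kept their direction and stayed past the threshold when any 1 library was left out.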

How the results depend on the processing

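Median-of-ratios scaling and quantile normalization changed the most calls of members. With a filter at a mean of 2 FPKM, 33 members were tested and none of their calls changed. Member counts under that filter are lower only because fewer members were tested. The 10 Fox genes that rose were 6 with a filter at 2 FPKM, 6 under median-of-ratios scaling and 5 under quantile normalization, and the 8 Sox genes that rose were 4 with that filter. Member transcripts that rose numbered 12 with it, and 4967 genes fell under quantile normalization. Under median-of-ratios scaling and quantile normalization the Fox sum with BAC was 127.0 and 125.3 FPKM, the Sox sum with PBS 96.1 and 96.6 FPKM, the Klf sum with BAC 131.2 and 133.7 FPKM and the Klf sum with PBS 137.5 and 135.6 FPKM, so that the Klf sum was then lower with BAC. Among members past the threshold as deposited, the direction turned for Foxj2 (-0.021, quantile), Foxn3 (-0.002, median-of-ratios, and -0.037, quantile) and Foxo6 (-0.211, quantile). Among the others the sign turned for Foxq1 and Klf11 under both, Klf6 under median-of-ratios scaling and Klf15 under quantile normalization. The Fox median of 0.22 became -0.017 over the members left by the filter at 2, 0.026 under median-of-ratios scaling and -0.066 under quantile normalization. The cause of the differences between scalings was not tested. A pseudocount of 0.1 and other prior variances changed no call of the 44 tested members.

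Same-numbered libraries deviated together with correlations of 0.053, 0.109, 0.121 and 0.114 from BAC 1 to BAC 4. Differently numbered libraries ran from -0.119 (BAC 3 with PBS 2) to 0.104 (BAC 1 with PBS 2). BAC 2, BAC 3 and BAC 4 each correlated best with the PBS library of their own number, and BAC 1 with PBS 2. The labels state no pairing or batch, so the main test used none. Whether the numbers stand for pairs or a shared batch is not known. With a replicate block, 5693 genes rose and 2826 fell, as did 10 and 4 Fox, 8 and 4 Sox and 6 and 2 Klf genes. The block ended the calls of Foxj3 and Foxn3, made one for Foxm1, and raised the melanocyte markers that rose to 5. Leaving out libraries moved no family count by over 1.5 times. Depth is unknown, so no limit from counting can be given.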
